A study of Drosophila melanogaster with 8 samples.

Results

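The genes described here are 30 genes for sarcomere and contractile proteins of Drosophila melanogaster, taken by name from a table of 17321 genes. They fall into 7 thick filament genes, 8 thin filament genes, 7 troponin genes and 8 Z-disc genes. Their RNA was measured in whole embryos of the wild-type strain Oregon R (OrgR) and in embryos mutant for esc, whose product, extra sex combs, is a subunit of the Polycomb complex PRC2 that methylates histone H3. Per the labels, the mutant embryos were mutant for esc maternally and zygotically, the allele is not named, and each pool held at least 200 embryos of stages 14 and 15. Flies of both genotypes were kept under standard conditions. There were 4 bulk RNA-seq libraries of each genotype, titled 1-1, 1-2, 2-1 and 2-2, which form 2 sets of 2 libraries by their first number. Values are RPKM, read numbers divided by the length of the gene and by the total reads of its library, so levels can be set side by side between genes.

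The sarcomere is the repeating contractile unit of muscle. Thick filaments of myosin pull on thin filaments of actin, which are anchored at their ends in the Z-disc, while calcium binding to troponin moves tropomyosin on the actin filament and opens the sites for myosin. In the fly embryo the somatic muscles form by fusion of myoblasts, after which the sarcomere genes are switched on and the myofibrils are assembled toward the end of embryogenesis. Several of the proteins exist as separate genes used by larval, adult leg or flight muscle, among them the actins and the troponin C genes.

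Of the 29 sarcomere genes that passed the filter, a mean of 0.5 RPKM or more, 21 were higher in esc embryos than in OrgR embryos past an adjusted p of 0.05, none was lower, and 8 did not pass. Zasp67 was the 1 gene below the filter, and Unc-89, among the 21, passed it only through the esc libraries. The 30 genes are spread over the genome, with 9 on chromosome arm 3R, 8 on 2R, 6 on 3L, 3 each on 2L and X and 1 on chromosome 4. Tests were made with limma on log2(RPKM + 1) of the set means, with 2 sets a genotype and Benjamini-Hochberg adjustment over all 10547 tested genes. In that fit 20.9% of all tested genes rose and 31.6% fell, 52.5% in either direction. No sarcomere gene was lower at an unadjusted p under 0.05 in limma either, and 22 were higher at that level. By group, all 7 thick filament genes rose, as did 6 of 8 thin filament genes, 2 of 7 troponin genes and 6 of the 7 Z-disc genes tested. With each set left out in turn all 7 thick filament genes still rose, while the Z-disc rises were 5 without OrgR set 1 and 3 without OrgR set 2, esc set 1 or esc set 2. The thin filament rises were then 4 or 5, with 4 without OrgR set 2 or esc set 2, and the troponin rises 1 without OrgR set 2 or esc set 1 and 3 without OrgR set 1. A called rise of at least 1 on the log2 scale was reached by 15 of the 29 genes and by 12.6% of all tested genes. Within the genes that rose, these were 15 of 21 sarcomere genes and 1330 of 2208 genes in all. The median log2 change was 1.39 for the 29 genes and -0.18 for all tested genes. It was 2.05 for thick filament, 1.13 for thin filament, 0.62 for troponin and 0.84 for Z-disc genes. The plot of levels by library gives all 30 genes.

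**Figure D1:**
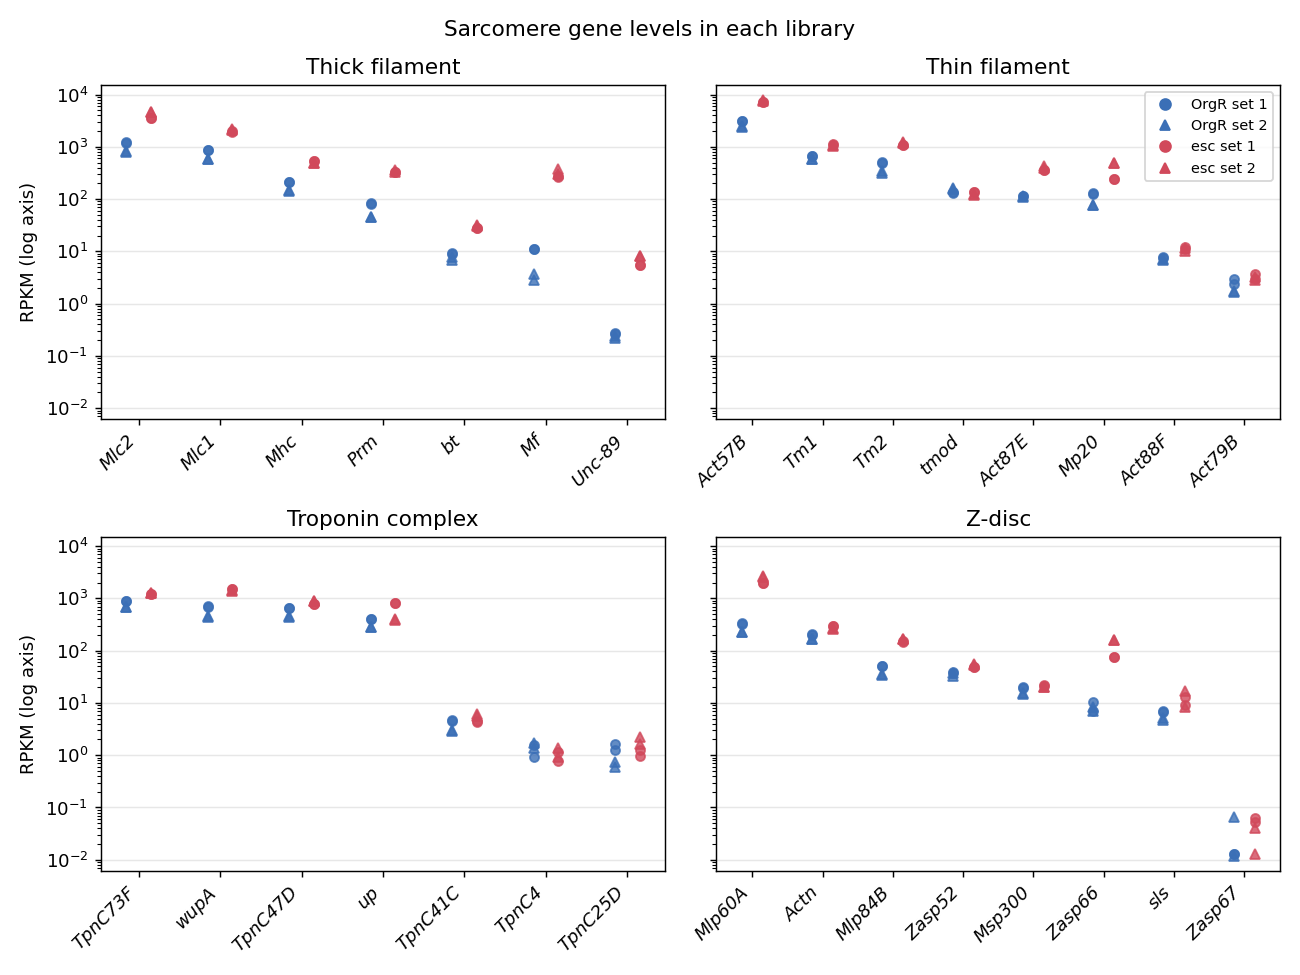
RPKM on a log axis of each sarcomere gene in each of the 8 libraries, in 4 panels by group, blue for OrgR and red for esc, circles for set 1 and triangles for set 2. All 4 esc libraries lie above all 4 OrgR libraries for 22 of the 29 tested genes, and below for 0; among all tested genes this holds for 26.2% and 45.3%.

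Several measurements of the whole series bear on these values. The esc gene itself fell from 11.7 ± 0.19 to 3.80 ± 0.32 RPKM (SD, n = 2 sets; -1.40 ± 0.11 on the log2 scale, adjusted p = 0.00267). The shallowest library had 84.4% of the depth of the deepest. Across the 7032 genes averaging 10 RPKM or more, libraries of a set typically differed by 0.03 to 0.06 on the log2 scale (median of the absolute difference), sets by 0.12 to 0.16 and genotypes by 0.38 to 0.48. Of the 10547 tested genes, 5537 changed; with 1 set left out this was 2652 (OrgR set 1), 2071 (OrgR set 2), 3209 (esc set 1) or 2358 (esc set 2). Median-of-ratios scaling moved the median log2 change of all genes from -0.18 to -0.02, and the sarcomere genes' median stood 1.57 above it in the main fit and 1.59 under that scaling. Marker lists of other cell types moved as well, and their counts stand beside 20.9% of all tested genes that rose and 31.6% that fell. All 9 late epidermis and cuticle markers rose, Ddc having passed the filter only through esc. Their summed level was 812 and 851 RPKM in the OrgR sets and 5535 and 8701 RPKM in the esc sets. Most of the OrgR sum came from verm, with a mean of 749 RPKM in OrgR and 1209 RPKM in esc. The verm gene is also counted among the trachea markers below. All 5 cycling cell markers fell, from sums of 339 and 387 to 172 and 169 RPKM, and 4 of 5 neuroblast markers fell, from sums of 174 and 173 to 96.7 and 93.7 RPKM. No marker in these 3 lists was at 0, and the part of these differences in the sarcomere results was not tested. The exact age of a pool within stages 14 and 15 is not given, so genotype and pool age cannot be told apart. Nor, in bulk RNA from whole embryos, can more muscle cells and more RNA per muscle cell.

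All thick filament genes rose, Mhc and Mlc1 by nearly the same factor and the others by factors from 3.63 to 42.2. Mhc, the gene for the muscle myosin heavy chain that carries the motor, measured 211, 212, 146 and 152 RPKM in OrgR libraries 1-1, 1-2, 2-1 and 2-2. In the esc libraries of the same titles it measured 528, 533, 485 and 490.2 RPKM. Every esc library was far above every OrgR library, and OrgR set 1 was above OrgR set 2. The mean went from 180.1 ± 44 to 509 ± 30 RPKM (SD, n = 2 sets), a 2.83-fold rise (1.51 ± 0.19 on the log2 scale, adjusted p = 0.00643). The gene spans chr2L:16766566-16788766 on the plus strand of dm6.

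The myosin light chain genes rose with it. Mlc1, the essential light chain of muscle myosin, measured 851, 854, 583 and 591 RPKM in the OrgR libraries and 1936, 1979, 2068 and 2208 RPKM in the esc libraries, in the same order. Its mean went from 719.7 ± 188 to 2048 ± 128 RPKM, 2.85-fold (1.53 ± 0.20 on the log2 scale, adjusted p = 0.00728). Mlc2, the regulatory light chain, measured 1219.5, 1195, 825 and 797 RPKM in OrgR and 3569, 3589, 4718 and 4739.6 RPKM in esc. This was the highest level of a thick filament gene in both genotypes, and esc set 2 was above esc set 1. The Mlc2 mean went from 1009 ± 280.0 to 4154 ± 813 RPKM, 4.12-fold (2.05 ± 0.25 on the log2 scale, adjusted p = 0.0061).

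Within the myosin genes the ratio of Mlc1 to Mhc overlapped between the genotypes, at 3.99 ± 0.066 to 4.04 ± 0.49 (SD, n = 2 sets), while Mlc2 stood higher in esc relative to Mlc1. Mlc2 over Mlc1 was 1.43, 1.40, 1.42 and 1.35 in the OrgR libraries and 1.84, 1.81, 2.28 and 2.15 in the esc libraries, without overlap. The exact permutation test of 2 sets against 2 cannot give a p below 0.333, which it gave for this ratio. A ratio within a library does not depend on how libraries were scaled.

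Prm and Mf, genes of proteins that build or decorate the thick filament, stood higher relative to Mhc in esc than in OrgR. Prm, the gene of paramyosin, which forms the core of invertebrate thick filaments, measured 83.3, 79.3, 44.5 and 45.6 RPKM in OrgR and 330.5, 332, 354 and 328 RPKM in esc. Its mean went from 63.2 ± 26 to 336 ± 7.0 RPKM, 5.32-fold (2.45 ± 0.29 on the log2 scale, adjusted p = 0.0058). The esc libraries lay close together while OrgR set 1 was well above OrgR set 2. Mf, the gene of myofilin, a thick filament protein of insects, measured 11.1, 11.3, 2.86 and 3.70 RPKM in OrgR and 274, 270.2, 370.3 and 306 RPKM in esc. From 7.23 ± 5.6 to 305 ± 46 RPKM this was a 42.2-fold rise (5.40 ± 0.52 on the log2 scale, adjusted p = 0.00391), from chr3R:15170625-15181510 on the minus strand, the largest log2 change of the 29 genes and number 98 of the 10547 tested genes by log2 change. Against Mhc in the same library, Prm went from 0.344 ± 0.058 to 0.662 ± 0.053 and Mf from 0.0375 ± 0.022 to 0.603 ± 0.13, with no overlap for either and an exact permutation p of 0.333, the smallest possible.

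The giant kinase proteins bt and Unc-89 had low levels in OrgR. The bt gene encodes projectin, a titin-like protein, and measured 8.96, 9.43, 6.72 and 7.72 RPKM in OrgR and 27.8, 28.5, 30.4 and 32.6 RPKM in esc. It went from 8.21 ± 1.4 to 29.8 ± 2.3 RPKM, 3.63-fold (1.75 ± 0.15 on the log2 scale, adjusted p = 0.00307). Unc-89, the obscurin gene whose product lies at the M-line in the middle of the sarcomere, measured 0.278, 0.263, 0.223 and 0.238 RPKM in OrgR and 5.49, 5.54, 8.09 and 8.12 RPKM in esc. All 4 OrgR libraries were below 0.5 RPKM. It went from 0.251 ± 0.028 to 6.81 ± 1.8 RPKM, 27.2-fold (2.62 ± 0.19 on the log2 scale, adjusted p = 0.00224). At such a low OrgR level the pseudocount of 1 shortens the log2 change, which was 4.28 with a pseudocount of 0.1 and 4.69 with 0.01.

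**Figure D2:**
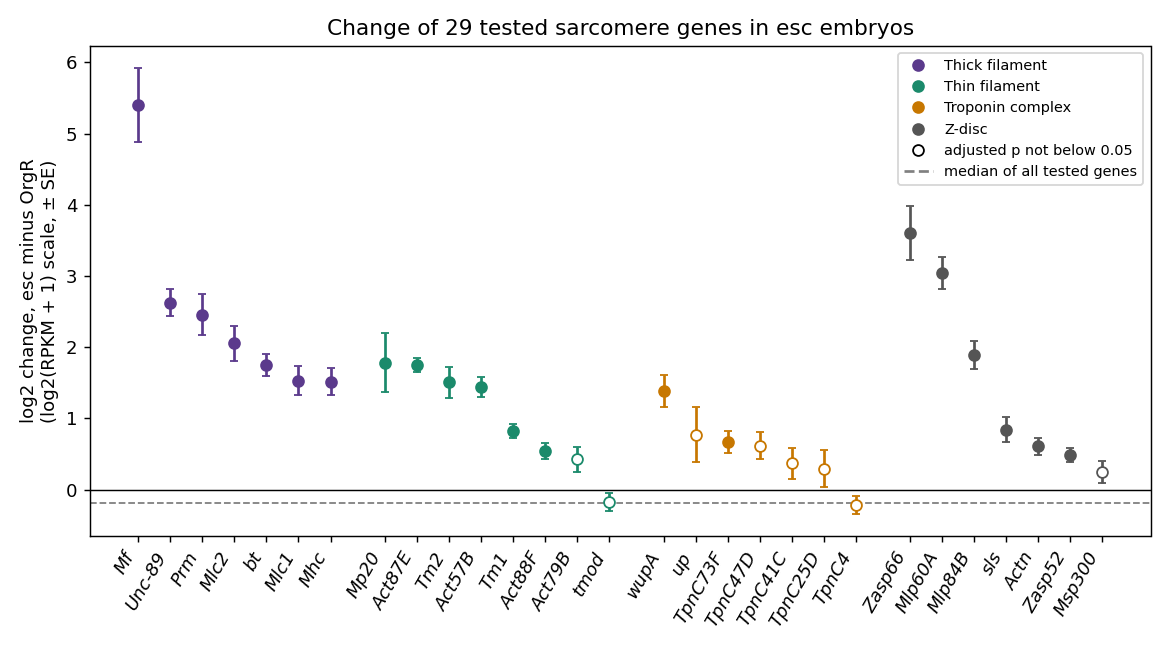
Log2 change from OrgR to esc on the log2(RPKM + 1) scale with its standard error, for the 29 tested sarcomere genes ordered within 4 groups. Filled points passed an adjusted p of 0.05; all 7 thick filament points are filled, 5 of 7 troponin points are open, and the dashed line marks the median of all tested genes at -0.18.

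Among the thin filament genes, both actins of larval muscle rose while the actins known from adult muscle were at low levels in both genotypes. Act57B was the most abundant of all 30 genes in both genotypes, with 3072, 3079.7, 2467 and 2443 RPKM in OrgR and 7358, 7222, 7824 and 7509 RPKM in esc. It went from 2765 ± 439 to 7478 ± 266 RPKM, 2.70-fold (1.44 ± 0.14 on the log2 scale, adjusted p = 0.004). Act87E, also an actin of larval muscle, measured 114.6, 117, 113 and 112 RPKM in OrgR and 358, 359.9, 420.4 and 402 RPKM in esc. Its OrgR sets differed least among the rising thin filament genes, and it went from 114 ± 2.4 to 385 ± 37 RPKM, 3.38-fold (1.75 ± 0.10 on the log2 scale, adjusted p = 0.00145).

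Act88F is the actin of the indirect flight muscle of the adult. It measured 7.42, 7.67, 6.94 and 7.25 RPKM in OrgR and 12.1, 10.9, 11.6 and 10.03 RPKM in esc and went from 7.32 ± 0.32 to 11.1 ± 0.48 RPKM, 1.52-fold (0.54 ± 0.11 on the log2 scale, adjusted p = 0.0166). The genotypes did not overlap, but the call was lost with each set left out in turn, at adjusted p values of 0.06 and 0.0809 without OrgR set 1 or 2 and 0.0743 and 0.0672 without esc set 1 or 2. Quantile normalization gave a log2 change of 0.36 (adjusted p = 0.0483). Act79B, an actin of adult leg and other tubular muscles, measured 2.35, 2.91, 1.66 and 1.72 RPKM in OrgR and 3.67, 3.01, 3.27 and 2.88 RPKM in esc. The genotypes overlapped slightly, and it did not pass (0.43 ± 0.18 on the log2 scale, adjusted p = 0.104). Its log2 change was 0.21 (adjusted p = 0.334) without OrgR set 2 and turned to -0.18 (adjusted p = 0.379) under quantile normalization. The actin genes are close paralogs, so how the authors assigned reads that match several of them can move reads between these genes, and values as low as those of Act79B and Act88F are uncertain for that reason.

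The makeup of the muscle actin RNA was dominated by Act57B in both genotypes. Its share of the summed RPKM of the 4 muscle actin genes went from 95.7 ± 0.54 to 94.9 ± 0.26 percent (SD, n = 2 sets). Act87E made up 3.59, 3.63, 4.35 and 4.36 percent in the OrgR libraries and 4.63, 4.74, 5.09 and 5.07 percent in the esc libraries, a share that was higher in esc without overlap. The shares of Act79B and Act88F were lower in esc, at 0.0738 ± 0.012 to 0.0407 ± 0.0040 and 0.256 ± 0.028 to 0.142 ± 0.012 percent. Each of these shares had an exact permutation p of 0.333, the smallest the design allows.

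The tropomyosin genes Tm1 and Tm2, whose products lie along the actin filament, are neighbours on chromosome arm 3R. In the Ensembl annotation of the dm6 assembly Tm1 spans chr3R:15278220-15308779 and Tm2 spans chr3R:15310193-15315197, both on the plus strand, with 1413 bp and no gene between them. Tm1 measured 655, 654, 588 and 579.7 RPKM in OrgR and 1102, 1125, 1079 and 1060.0 RPKM in esc, a 1.76-fold rise (0.82 ± 0.10 on the log2 scale, adjusted p = 0.00591). Tm2 measured 503, 486, 339 and 317 RPKM in OrgR and 1095, 1095, 1213 and 1197 RPKM in esc, a 2.79-fold rise (1.51 ± 0.22 on the log2 scale, adjusted p = 0.00879). Tm1 also gives cytoskeletal isoforms outside muscle, which the gene-level value does not separate. The ratio of Tm1 to Tm2 was above 1 in all OrgR libraries and close to 1 in the esc libraries, and went from 1.55 ± 0.32 to 0.952 ± 0.092 with an exact permutation p of 0.333.

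The remaining thin filament genes differed from each other. Mp20, muscle protein 20 of the calponin family, measured 133, 128, 76.1 and 76.4 RPKM in OrgR and 246, 246, 487 and 485 RPKM in esc. The sets of each genotype were far apart, with OrgR set 1 above OrgR set 2 and esc set 2 above esc set 1, and the mean went from 103 ± 38 to 366 ± 170.0 RPKM, 3.55-fold (1.79 ± 0.42 on the log2 scale, adjusted p = 0.0252). The call was lost when OrgR set 2 was left out, at a log2 change of 1.40 (adjusted p = 0.0921), or esc set 2, at 1.30 (adjusted p = 0.0726). The tmod gene, for tropomodulin, which caps the slow-growing end of thin filaments and also acts in other cells, measured 132, 137, 156 and 165 RPKM in OrgR and 139.6, 139, 119.5 and 123 RPKM in esc. Its libraries overlapped between genotypes and it did not pass (-0.17 ± 0.13 on the log2 scale, adjusted p = 0.306), with a log2 change of 0.01 under median-of-ratios scaling and from -0.30 without OrgR set 1 to -0.05 without OrgR set 2.

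Of the 7 troponin genes, wupA and TpnC73F rose and the other 5 did not pass, beside 20.9% of all tested genes that rose. Troponin has an inhibitory subunit, a tropomyosin-binding subunit and a calcium-binding subunit. The inhibitory subunit, troponin I, comes from wupA, which measured 702, 688, 459 and 447 RPKM in OrgR and 1518, 1535, 1394 and 1438 RPKM in esc. It went from 574 ± 171 to 1471 ± 78 RPKM, 2.56-fold (1.39 ± 0.22 on the log2 scale, adjusted p = 0.0109).

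The up gene encodes troponin T, the tropomyosin-binding subunit. It measured 396, 396, 285 and 279 RPKM in OrgR and 811, 821, 387 and 412 RPKM in esc. Set 1 of esc was well above both OrgR sets, while set 2 of esc was at the level of OrgR set 1. It went from 339 ± 81 to 608 ± 294 RPKM and did not pass (0.77 ± 0.38 on the log2 scale, adjusted p = 0.153). Without esc set 2 the log2 change was 1.29 (adjusted p = 0.0397), and without esc set 1 it was 0.26 (adjusted p = 0.433). Relative to wupA in the same library, up stood at 0.564, 0.576, 0.620 and 0.624 in OrgR and 0.534, 0.535, 0.278 and 0.287 in esc, so esc set 1 was just below OrgR and esc set 2 well below it.

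The calcium-binding subunit, troponin C, comes from 5 genes. TpnC73F measured 890.4, 900.3, 672 and 671 RPKM in OrgR and 1202, 1221, 1248 and 1268 RPKM in esc and went from 784 ± 158 to 1235 ± 33 RPKM, 1.58-fold (0.67 ± 0.16 on the log2 scale, adjusted p = 0.0261). The call was lost when OrgR set 2 was left out, at 0.46 (adjusted p = 0.0751), and likewise for esc set 1, at 0.70 (adjusted p = 0.0791), or esc set 2, at 0.64 (adjusted p = 0.101). TpnC47D measured 649, 647, 462 and 447 RPKM in OrgR and 789, 784, 875 and 893 RPKM in esc. Its genotypes did not overlap, yet it missed the threshold (0.62 ± 0.19 on the log2 scale, adjusted p = 0.0521). It passed without OrgR set 1, at 0.87 (adjusted p = 0.0324), without OrgR library 1-1, at 0.62 (adjusted p = 0.0485), and without OrgR library 2-2, at 0.61 (adjusted p = 0.0471). Leaving out OrgR set 2 lowered it to 0.36 (adjusted p = 0.131), and median-of-ratios scaling gave 0.81 (adjusted p = 0.0373).

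These 2 genes supplied nearly all troponin C RNA. TpnC73F made up 58.6 ± 1.2 to 59.5 ± 1.4 percent of the summed RPKM of the 5 genes, and TpnC47D 41.0 ± 1.1 to 40.2 ± 1.3 percent, with overlap between genotypes for both. The other 3 genes were near the bottom of the range. TpnC41C, a gene of adult jump and flight muscle, measured 4.49, 4.66, 3.04 and 2.97 RPKM in OrgR and 4.30, 4.56, 6.12 and 5.65 RPKM in esc (0.37 ± 0.22 on the log2 scale, adjusted p = 0.211). TpnC4, the main troponin C of adult flight muscle, measured 0.938, 1.57, 1.40 and 1.69 RPKM in OrgR and 1.16, 0.791, 1.36 and 0.937 RPKM in esc (-0.21 ± 0.13 on the log2 scale, adjusted p = 0.209). The libraries of both genes overlapped between genotypes, and the share of TpnC4 went from 0.109 ± 0.039 to 0.0512 ± 0.0034 percent, also with overlap. TpnC25D lay between 0.593 and 2.26 RPKM over all libraries (0.30 ± 0.26 on the log2 scale, adjusted p = 0.375), and 4.32% of its exonic bases are shared with tkv on the opposite strand. Quantile normalization turned the log2 change of TpnC41C to -0.14 and of TpnC25D to -0.28, and had TpnC4 fall, at -0.79 (adjusted p = 0.0123). Without OrgR set 2 the 3 log2 changes were 0.13 for TpnC41C, 0.02 for TpnC25D and -0.12 for TpnC4.

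Relative to wupA, TpnC73F was lower in esc. TpnC73F over wupA was 1.27, 1.31, 1.46 and 1.501 in the OrgR libraries and 0.792, 0.795, 0.895 and 0.882 in the esc libraries. It was above 1 in every OrgR library and below 1 in every esc library, with an exact permutation p of 0.333.

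Of the Z-disc genes tested, 6 rose and Msp300 did not pass, and the rises ranged from 1.41-fold to 14.4-fold. Mlp60A, for a muscle LIM protein, measured 335, 331, 231 and 230.3 RPKM in OrgR and 2006, 2012, 2524 and 2674 RPKM in esc. It was 8.18-fold higher in esc (3.04 ± 0.23 on the log2 scale, adjusted p = 0.00238). Mlp84B, its paralog, measured 50.3, 50.7, 35.6 and 33.9 RPKM in OrgR and 151, 149, 169 and 167 RPKM in esc, 3.73-fold higher (1.90 ± 0.20 on the log2 scale, adjusted p = 0.00462). Mlp60A was the more abundant in every library, and its ratio to Mlp84B went from 6.61 ± 0.033 to 14.4 ± 1.5 without overlap (exact permutation p = 0.333).

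The Zasp genes encode PDZ proteins that bind alpha-actinin at the Z-disc, and they differed from each other. Zasp66 measured 10.3, 7.16, 6.93 and 8.19 RPKM in OrgR and 74.9, 74.2, 159 and 160.1 RPKM in esc. It went from 8.15 ± 0.84 to 117 ± 60 RPKM, 14.4-fold (3.60 ± 0.37 on the log2 scale, adjusted p = 0.00455), and esc set 2 was well above esc set 1. Zasp52 measured 37.1, 39.0, 33.0 and 37.5 RPKM in OrgR and 49.5, 49.1, 54.9 and 53.9 RPKM in esc, 1.41-fold higher (0.49 ± 0.10 on the log2 scale, adjusted p = 0.0189). Its call was lost with each set left out in turn, at adjusted p values of 0.0567 and 0.0851 without OrgR set 1 or 2 and 0.0524 and 0.0969 without esc set 1 or 2. Zasp66 over Zasp52 went from 0.223 ± 0.012 to 2.22 ± 1.0 (exact permutation p = 0.333), and Zasp52 was the higher of the pair in every OrgR library and Zasp66 in every esc library. Zasp67, known from adult flight muscle, was between 0.012 and 0.066 RPKM in all 8 libraries and was not tested.

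Actn, the gene of alpha-actinin, which crosslinks thin filaments at the Z-disc and acts in other cells too, measured 199.5, 205, 168 and 169 RPKM in OrgR and 296, 296, 272 and 264 RPKM in esc, 1.52-fold higher (0.61 ± 0.12 on the log2 scale, adjusted p = 0.0183). Of its exonic bases 20.7% are shared with CG4313 or east on the opposite strand or with usp on the same strand. An unstranded library cannot separate the reads of CG4313 and east there, and strand would not separate those of usp. Leaving out OrgR set 2 gave 0.48 (adjusted p = 0.0706), esc set 1 0.54 (adjusted p = 0.0757) and esc set 2 0.68 (adjusted p = 0.0594).

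The largest proteins of this group had low RPKM. The sls gene encodes Sallimus, a titin-like spring between the Z-disc and the thick filament, and measured 6.73, 7.17, 4.79 and 5.13 RPKM in OrgR and 12.7, 9.14, 17.1 and 8.22 RPKM in esc. Its esc libraries of the same set were far apart, by 0.44 in set 1 and 0.97 in set 2 on the log2(RPKM + 1) scale. Over the other sarcomere genes averaging 5 RPKM or more, the median difference within a set was 0.03, and the largest was 0.47, for Zasp66. The sls mean went from 5.96 ± 1.4 to 11.8 ± 1.2 RPKM, 1.98-fold (0.84 ± 0.18 on the log2 scale, adjusted p = 0.0191). Without esc library 2-1 the log2 change was 0.60 (adjusted p = 0.0685), and the adjusted p was 0.0617, 0.0572 and 0.0846 with OrgR set 2, esc set 1 or esc set 2 left out. With 8 libraries and an estimated correlation within sets it was 0.177. Msp300, a nesprin that links muscle nuclei to the cytoskeleton, measured 18.9, 20.6, 14.6 and 15.4 RPKM in OrgR and 21.5, 21.7, 19.9 and 19.8 RPKM in esc. The genotypes overlapped and it did not pass (0.25 ± 0.16 on the log2 scale, adjusted p = 0.236), with 0.06 without OrgR set 2, 0.44 without OrgR set 1 and 0.43 under median-of-ratios scaling.

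Summed over the 30 genes, sarcomere RNA was a larger share of all RPKM in esc. The share was 0.887, 0.899, 0.692 and 0.699 percent in the OrgR libraries and 2.06, 2.06, 2.15 and 2.14 percent in the esc libraries. The genotypes were far apart and OrgR set 1 was above OrgR set 2. The mean share went from 0.794 ± 0.14 to 2.10 ± 0.056 percent, 2.65-fold, with an exact permutation p of 0.333. By group the esc share was 3.52-fold the OrgR share for thick filament, 2.41-fold for thin filament, 1.75-fold for troponin and 4.82-fold for Z-disc genes. Much of the Z-disc sum came from Mlp60A, with a mean of 2304 RPKM in esc and 282 RPKM in OrgR. The Z-disc sums were 2611 and 3282 RPKM in the esc sets and 659 and 497 RPKM in the OrgR sets. By median log2 change the Z-disc genes, at 0.84, were below the thick filament genes, at 2.05. The differences between groups were not tested.

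Nonmuscle cells use paralogs of the same proteins. Of the 5 described here none rose and 3 fell, beside 20.9% and 31.6% of all tested genes. The zip gene, for nonmuscle myosin heavy chain, fell from 98.6 ± 10 to 59.3 ± 11 RPKM (-0.73 ± 0.16 on the log2 scale, adjusted p = 0.0228), and the cytoplasmic actin gene Act5C fell from 2253 ± 15 to 1548 ± 285 RPKM (-0.55 ± 0.15 on the log2 scale, adjusted p = 0.0357). Act42A, the other cytoplasmic actin, fell from 945 ± 52 to 706 ± 62 RPKM (-0.42 ± 0.10 on the log2 scale, adjusted p = 0.0287). The light chain genes sqh and Mlc-c did not pass, with log2 changes of -0.28 ± 0.09 (adjusted p = 0.051) and -0.21 ± 0.08 (adjusted p = 0.0945). The falls of these 3 genes depended on the scaling and on single sets. Under median-of-ratios scaling the log2 change of zip was -0.55 (adjusted p = 0.055), that of Act5C -0.37 (adjusted p = 0.113) and that of Act42A -0.23 (adjusted p = 0.136). Without OrgR set 1, OrgR set 2 or esc set 2 the adjusted p was 0.0567, 0.095 and 0.0745 for zip and 0.121, 0.126 and 0.0978 for Act5C, where the log2 change without esc set 2 was -0.36. The call of Act42A was lost with each set left out in turn, with adjusted p from 0.0522 without esc set 1 to 0.132 without OrgR set 2. The sqh gene passed without OrgR library 1-1 (adjusted p = 0.0469), OrgR library 2-2 (0.0307) or esc library 1-2 (0.0496), while median-of-ratios scaling moved sqh to -0.09 (adjusted p = 0.449) and Mlc-c to -0.02 (adjusted p = 0.875).

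The ratio of each muscle gene to its nonmuscle paralog does not depend on scaling and was higher in every esc library than in every OrgR library. Mhc over zip was 2.38, 2.26, 1.41 and 1.40 in OrgR and 8.01, 7.79, 10.03 and 9.004 in esc. Mlc2 over sqh went from 2.01 ± 0.44 to 10.2 ± 2.1, and Mlc1 over Mlc-c from 2.69 ± 0.74 to 8.82 ± 0.95. Act57B over Act5C, near 1 in OrgR, went from 1.23 ± 0.19 to 4.93 ± 1.1. Summed, the 4 muscle actin genes went from 0.904 ± 0.15 to 3.55 ± 0.68 times the 2 cytoplasmic actin genes, so cytoplasmic actin RNA was the larger part or about equal in OrgR and the smaller part in esc. In all, 32 shares and ratios were compared, and none can have a permutation p below 0.333 before or after adjustment.

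**Figure D3:**
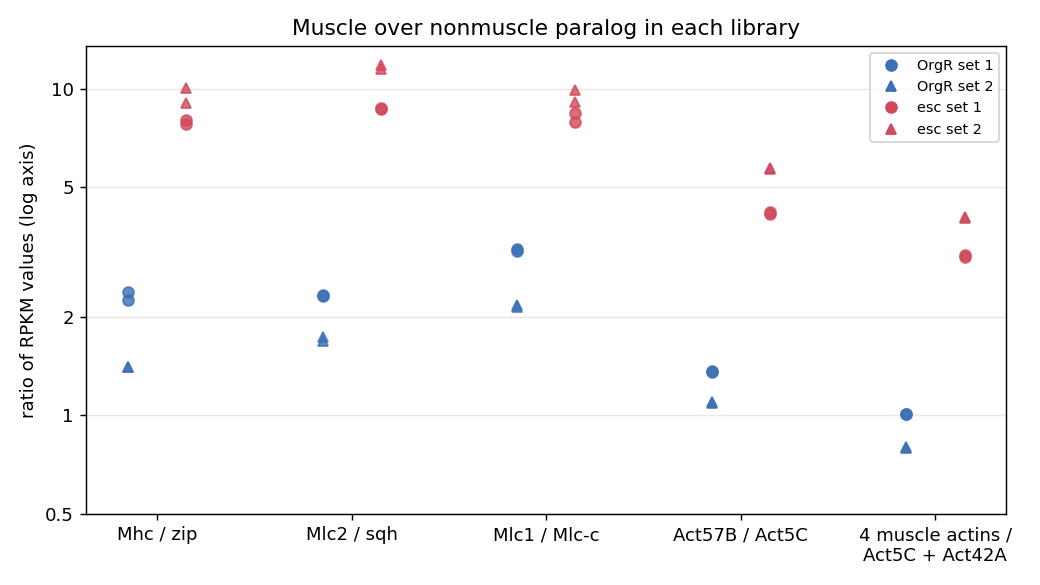
Ratio of RPKM values of a muscle gene to its nonmuscle paralog in each library, on a log axis, for 5 pairs, blue for OrgR and red for esc, circles for set 1 and triangles for set 2. Mhc over zip lies between 1.40 and 2.38 in OrgR and between 7.79 and 10.03 in esc, and esc lies above OrgR in each pair.

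Of 16 further sarcomere and assembly genes, 6 rose and 4 fell, beside 20.9% and 31.6% of all tested genes, with a median log2 change of 0.30. The rises were 4 without OrgR set 1 and 3 without OrgR set 2, esc set 1 or esc set 2, and the falls were 1 without OrgR set 2 or esc set 2. The largest rises were those of Pax, the paxillin gene of integrin adhesions, from 194 ± 30 to 405 ± 35 RPKM (1.07 ± 0.14 on the log2 scale, adjusted p = 0.00748), and fln, the flightin gene of flight muscle thick filaments, which passed the filter only through esc, from 0.400 ± 0.0032 to 1.95 ± 0.062 RPKM (1.07 ± 0.10 on the log2 scale, adjusted p = 0.00395). At its low level fln had a log2 change of 2.06 with a pseudocount of 0.1, and 0.52 after quantile normalization. The largest falls were those of unc-45, a chaperone for myosin folding, from 83.9 ± 6.9 to 50.1 ± 1.9 RPKM (-0.73 ± 0.10 on the log2 scale, adjusted p = 0.00797), and cpb, capping protein beta, from 114 ± 4.3 to 72.0 ± 7.5 RPKM (-0.66 ± 0.11 on the log2 scale, adjusted p = 0.0111). The call of cpb was lost without OrgR set 2 (adjusted p = 0.0573) or esc set 2 (adjusted p = 0.0512).

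Of 14 tested genes of excitation-contraction coupling and muscle energy supply, 5 rose and 3 fell, beside 20.9% and 31.6% of all tested genes. The median log2 change of the 14 was 0.25. No fall was left without OrgR set 1, OrgR set 2 or esc set 2, and 1 without esc set 1. SclB, which encodes a sarcolamban micropeptide that regulates the calcium pump SERCA, measured 4.97, 4.12, 1.93 and 2.27 RPKM in OrgR and 202, 208, 303 and 360.4 RPKM in esc. Its log2 change of 5.98 ± 0.37 (adjusted p = 0.00166) was above that of any sarcomere gene. SclA, the sister gene, was at 0.311, 0.001, 0.001 and 0.138 RPKM in OrgR, where 0.001 is the lowest value the table holds, and at 11.8, 10.8, 23.9 and 25.0 RPKM in esc (adjusted p = 0.00358), so that it passed the filter only through esc. With a pseudocount of 0.1 its log2 change was 6.56, and with 0.01 it was 8.41. SERCA itself did not pass (0.24 ± 0.13 on the log2 scale, adjusted p = 0.187; leaving out OrgR set 1 gave 0.08 and OrgR set 2 0.41), nor did RyR, the calcium release channel (0.03 ± 0.12 on the log2 scale, adjusted p = 0.851). Argk, arginine kinase, fell from 1117 ± 1.4 to 752 ± 108 RPKM (-0.58 ± 0.13 on the log2 scale, adjusted p = 0.021) and Stim, the calcium sensor of the reticulum, from 46.1 ± 3.5 to 33.2 ± 0.82 RPKM (-0.46 ± 0.10 on the log2 scale, adjusted p = 0.0203). Neither fall passed under median-of-ratios scaling (adjusted p = 0.0662 and 0.0835), where the Stim log2 change was -0.28. The Argk fall was also lost without OrgR set 1 (0.081), OrgR set 2 (0.0886) or esc set 2 (0.0705), all values in parentheses being adjusted p. The Stim fall was lost with each set left out in turn, at adjusted p from 0.0521 without OrgR set 1 to 0.0987 without esc set 2.

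Of 14 attachment and tendon genes 3 rose and 1 fell, with a median of -0.07, beside 20.9% of all tested genes that rose and 31.6% that fell, and all 4 calls were lost whichever set was left out. They included stck, the PINCH gene of integrin adhesions (0.40 ± 0.11 on the log2 scale, adjusted p = 0.0365), Vinc, vinculin (0.28 ± 0.08 on the log2 scale, adjusted p = 0.0449), and slow, which acts in tendon attachment (-0.36 ± 0.09 on the log2 scale, adjusted p = 0.0253). With each set left out in turn the adjusted p was 0.0554 to 0.153 for stck, 0.116 to 0.182 for Vinc and 0.0785 to 0.125 for slow. Vinc was also lost without OrgR library 1-2 (adjusted p = 0.0567), OrgR library 2-1 (0.0562) or esc library 2-1 (0.0503). Under median-of-ratios scaling the log2 change was 0.47 (adjusted p = 0.0165) for Vinc and -0.18 (adjusted p = 0.159) for slow. Of 13 myogenic and fusion genes 0 rose and 3 fell, with a median of -0.35. The falls were 1 without OrgR set 2 or esc set 2 and 0 without esc set 1. They included nau, the MyoD relative, from 20.8 ± 2.9 to 11.4 ± 1.2 RPKM (-0.82 ± 0.14 on the log2 scale, adjusted p = 0.0135), and lmd, a regulator of fusion-competent myoblasts, from 24.1 ± 2.5 to 15.3 ± 0.39 RPKM (-0.62 ± 0.11 on the log2 scale, adjusted p = 0.0147). Without OrgR set 1 or esc set 1 the adjusted p of nau was 0.0558 or 0.0566; without OrgR set 2, esc set 1 or esc set 2 that of lmd was 0.0684, 0.0653 or 0.0667. Mef2, the factor that drives many sarcomere genes, measured 128, 137, 141 and 147 RPKM in OrgR and 126, 120.4, 110.2 and 109 RPKM in esc and did not pass (-0.25 ± 0.10 on the log2 scale, adjusted p = 0.104), with -0.06 (adjusted p = 0.657) under median-of-ratios scaling. Of 20 nonmuscle actomyosin genes 0 rose and 8 fell, with a median of -0.32, and 0 fell under median-of-ratios scaling. Over these 5 lists 14 genes rose and 19 fell. Without OrgR set 1, OrgR set 2, esc set 1 or esc set 2 the rises were 9, 7, 7 and 7 and the falls 6, 2, 9 and 2.

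**Figure D4:**
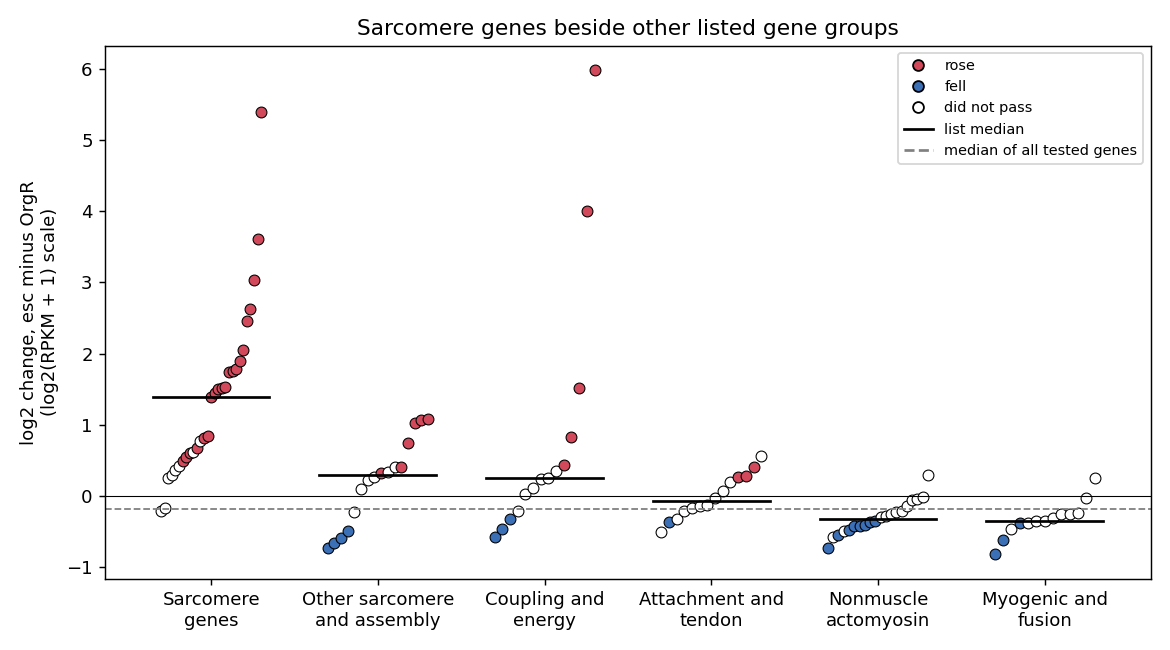
Log2 change from OrgR to esc on the log2(RPKM + 1) scale of each tested gene in the sarcomere group and in 5 other lists, red for genes that rose, blue for genes that fell and white for those that did not pass, with the list median as a bar and the median of all tested genes as a dashed line. The median is 1.39 for the sarcomere genes and lies between -0.35 and 0.30 for the other lists.

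The sarcomere genes also differed between the sets of one genotype. OrgR set 1 was above OrgR set 2, with no overlap of libraries, for 25 of the 29 genes, and below it for 1, tmod. Among all tested genes 39.6% had OrgR set 1 higher and 30.9% had OrgR set 2 higher in this way. Over the 24 genes averaging 5 RPKM or more the median difference was 0.45 on the log2(RPKM + 1) scale, beside 0.02 for all tested genes, and it reached 1.52 for Mf and 0.84 for Prm. In esc, set 2 was above set 1 for 17 genes and set 1 above set 2 for 7, beside 38.5% and 35.4% of all tested genes. The median esc difference was -0.13, and the widest were those of Zasp66 at -1.09, Mp20 at -0.98 and up at 1.03. The late epidermis and cuticle markers, given above, differed more between the esc sets than between the OrgR sets.

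**Figure D5:**
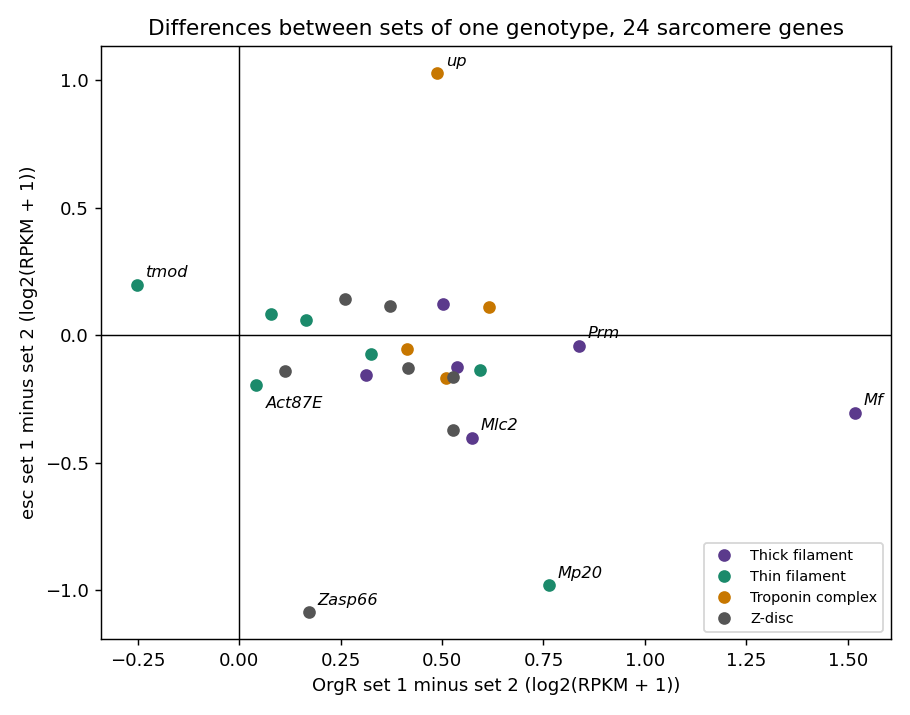
Difference between set 1 and set 2 in OrgR (horizontal) and in esc (vertical) on the log2(RPKM + 1) scale, 1 point for each of the 24 sarcomere genes averaging 5 RPKM or more, coloured by group. In OrgR every point but that of tmod lies to the right of 0, with Mf farthest at 1.52; in esc the points lie on both sides of 0, from Zasp66 at -1.09 to up at 1.03.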

How the data were processed

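RNA from pools of whole embryos was sequenced as unstranded paired reads of 150 bp after library preparation with a NEBNext kit, per the labels' protocols. The authors deposited RPKM values on a linear scale for 17321 genes in 8 libraries. Per the submitters' processing notes, the genome build is dm6. Gene models, aligner and counting method are not given in the sources used here. A value of 0.001 RPKM, the lowest, filled 27.6% of the cells and was read as a floor. RPKM is a share of a library, so a rise of abundant genes lowers the values of the others. Without strand, overlapping genes on opposite strands share reads. Absolute depth is unknown, and relative depth was read from the steps of low values.

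The sarcomere genes were matched by symbol, and positions, 1-based, are from Ensembl release 115, where Unc-89 is listed under a synonym. The genes, the lists and the tests were chosen with earlier results of these data known. Whether the second number of a title marks a repeat library is not stated, so the 2 libraries of a set were averaged on the log2 scale and counted as 1 sample. Nothing says that sets were separate collections, so p-values reflect only how far these sets differ, and that spread may be technical. Genes averaging 0.5 RPKM or more entered limma 3.58.1 (lmFit, eBayes with a variance trend; R 4.3.3) as log2(RPKM + 1), two-sided, with Benjamini-Hochberg adjustment over 10547 genes and a threshold of 0.05. The fit has 2 residual degrees of freedom, 4.55 after moderation. Log2 changes are on this scale, which understates those of low genes, with standard errors of the fit; fold changes are ratios of mean RPKM. The fit was tested on simulated data. Shares and ratios were compared by exact permutation of the set means, two-sided.

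All 30 sarcomere genes are named, with the 2 largest rises and 2 largest falls that passed in each other list, esc, and the nonmuscle paralogs. SERCA, RyR and Mef2 were added after their values were seen. Alternatives were other pseudocounts, filters and scalings, libraries as replicates, replicate blocks and leaving out each set or library.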

Additional observations from a re-analysis of the deposited data

Results flagged for a closer look

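Of 58 groups of 4 libraries, 2 for each tested sarcomere gene, 1 had a library far from the other 3. This was Prm in esc library 2-1, at 354 RPKM, while the other esc libraries measured 330.5, 332 and 328 RPKM. The gap was 0.852 of the range of the group on the log2 scale. The limit used would flag about 1 in 20 groups of 4 independent values. These libraries come in sets of 2 that lie close together, so that rate does not hold here and the count of flags cannot be set against it. All 4 Prm values in esc are far above the OrgR libraries.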

How the results depend on the processing

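Of the 21 sarcomere genes that rose, 15 kept their call under all 24 alternatives. The 6 others, Act88F, Mp20, TpnC73F, sls, Zasp52 and Actn, lost it in at least 1. The number that rose was 15 to 22 with a set or library left out. With 1 set left out, that genotype keeps 1 set, which is assumed to vary like the other sets. Over all tested genes the median log2 change was -0.18, -0.02 under median-of-ratios scaling and -0.26 under quantile normalization, and rises made up 39.9%, 64.2% and 30.5% of changed genes. Quantile normalization had 1 sarcomere gene fall, TpnC4 (adjusted p = 0.0123). Of all tested genes, 5537 changed, 2208 up and 3329 down. Leaving out a set or library gave 2071 to 5730 changed, 1302 to 2237 up and 736 to 3509 down. The falls were 1409 under median-of-ratios scaling and 5050 with 8 libraries as replicates. In the 5 other lists 14 rose and 19 fell. Leaving out a set or library gave 7 to 16 rises and 2 to 22 falls. Falls were 6 under median-of-ratios scaling and 32 with 8 libraries as replicates. The causes were not tested.

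The set numbers are shared between genotypes, but the set differences of OrgR and esc had a correlation of -0.37 over 7032 genes. The labels do not say whether sets of one number were collected together. This correlation cannot decide it, because any other difference between sets enters it too. With the set number as a replicate block, 16 sarcomere genes rose, 2467 of all genes changed, 899 fell, and in the other lists 8 rose and 3 fell. With 8 libraries and the full number as block, 29 listed genes fell. A crossed pairing, chosen after seeing the data, gave 23 sarcomere genes that rose and 6717 changed genes. The precision is limited by 2 sets a genotype.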

Other observations

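Markers of other tissues gave mixed counts, to be read beside the 20.9% of all tested genes that rose and the 31.6% that fell. Of the 5 heart markers, prc, a matrix protein gene of the heart, rose from 7.68 ± 0.030 to 29.3 ± 0.85 RPKM (1.81 ± 0.10 on the log2 scale, adjusted p = 0.00127) and Sur, an ABC transporter gene, from 1.70 ± 0.046 to 5.29 ± 0.39 RPKM (1.22 ± 0.11 on the log2 scale, adjusted p = 0.00364). The heart transcription factor genes tin, Hand and H15 fell, with log2 changes of -0.64 ± 0.11, -0.70 ± 0.11 and -0.45 ± 0.13, and the summed level was between 66.2 and 75.3 RPKM in OrgR and between 70.6 and 76.1 RPKM in esc. None of the 4 tested neuron markers passed, with summed levels of 68.8 and 90.6 RPKM in the OrgR sets and 89.5 and 58.5 RPKM in the esc sets. Among glia markers 0 rose and 2 of 5 fell, among hemocyte markers 1 rose and 1 fell of 4 tested (the rise, NimC1, passed the filter only through esc), and among fat body markers 1 rose and 2 fell of 4. Trachea markers had 1 rise and 1 fall of 5, the rise being that of verm, which is also an epidermis marker. Germ cell markers had 1 rise and 2 falls of 5, and gut markers 1 rise and 2 falls of 5. The gut rise was that of Try29F, a trypsin gene, from 2.29 ± 0.41 to 35.6 ± 26 RPKM (3.27 ± 0.55 on the log2 scale, adjusted p = 0.0123).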
